A study of Homo sapiens with 18 samples.

Results

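The collagen chain genes were taken from the authors' deposited table as the genes whose symbol is COL, a type number, the letter A and a chain number. This rule found 42 of the 21944 listed genes, and 44 genes in the GENCODE annotation of GRCh38. The other two, *COL5A3* and *COL6A5*, were not listed and are not analysed here. Of the 42 members, 41 were listed at all 3 collection times and *COL13A1* at 6 and 24 h, against 85.1% of all listed genes with a row at each time.

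The cells were pancreatic progenitors derived from human embryonic stem cells. At day 19 of differentiation they were detached with Accutase, reseeded in wells coated with LN411, a laminin isoform of low adhesion, or with fibronectin (FN), and collected after 3, 6 or 24 h. Each of the 6 combinations of coating and time had 3 samples, and the 18 libraries were made from poly(A) RNA. The labels name the line as HUES4 in their cell line field and, in the growth protocol, as an SA121-derived NGN3-GFP reporter line instead, and the study describes this experiment with the NGN3-GFP line.

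The level used throughout is the authors' mean normalized count, a read count per gene divided by a size factor and averaged over samples. Each gene carried the same mean at all 3 times (relative differences of at most 4.89e-07), as an average over both coatings and all times would. It is read here as the amount of RNA of each chain in the reseeded progenitors as a pool, although the file does not name the samples averaged. The authors' contrasts of LN411 with FN were not used, and values of single samples, their spread and any effect of coating or time were not analysed here. For this reason no level below carries an error or a p-value. Since long transcripts collect more reads, genes were compared as mean normalized counts per kb of their canonical transcript.

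Collagens are trimers of chains that wind around each other in a triple helix, with glycine recurring at a fixed step along each chain. Fibrillar collagens form the banded fibers of skin, bone and cartilage. Type IV collagen forms the sheet-like network of basement membranes, on which epithelia such as the pancreatic cords rest. The other types decorate fibril surfaces (the FACIT family), form beaded filaments (type VI), short-chain networks or anchoring fibrils, span the plasma membrane, or carry sugar chains in basement membrane zones (the multiplexins).

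The reseeded progenitors held collagen RNA mostly from 10 genes. These were *COL1A2*, *COL4A2*, *COL4A5*, *COL18A1*, *COL9A2*, *COL4A6*, *COL4A1*, *COL6A2*, *COL2A1* and *COL6A1*, in falling order of level per kb. Together they made up 91.8% of the summed level of the 42 members. The lowest of them, *COL6A1*, had 2538 mean normalized counts per kb, 2.60 times the 978 of the next gene, *COL9A3*. The order at the top depended on the length used. With the exon union as the length, *COL1A2* stayed highest at 4172 per kb. *COL9A2* (3595), *COL4A6* (3564), *COL18A1* (3503) and *COL4A5* (3250) then all stood above *COL4A2* (2532). *COL4A1* (1880) was then the lowest of the 10, below *COL6A1* (1927). With the longest transcript as the length, *COL4A2* (7569 per kb) stood just above *COL1A2* (7527), and *COL4A2* was also first by mean normalized count, before any division by length. The other 32 genes ran down to 1.43 per kb for *COL6A3*, so that the members spanned a 6232-fold range by canonical length. The median member had 66.8 mean normalized counts per kb, against 115 for all listed genes with a length and 310 for the listed protein-coding genes. Of the 42 members, 15 lay above the median of the protein-coding genes and 10 above their 90th percentile of 2264 per kb. A mean normalized count of at least 10 was reached by 41 members, and 18 reached 1000, against 95.4% and 51.3% of the listed protein-coding genes and 88.1% and 36.3% of all listed genes. All members together took 0.563% of the mean normalized counts of all listed genes, which summed to 53217583.

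By class, the 6 type IV genes of the basement membrane made up 40.6% of the summed level per kb, the 10 fibrillar genes 23.5% and the 26 other genes 35.9%. The classes differed more in their medians. The median level was 4581 per kb for type IV, 168 for the fibrillar genes and 35.1 for the other genes. Of the 6 type IV genes, 4 were above the 90th percentile of the protein-coding genes and the remaining pair was near the bottom of the table. The order of the first and the last share depended on the length used. With the union of all annotated exons as the length, the shares became 35.0% for type IV, 22.6% for fibrillar and 42.4% for other genes. Moving the basement membrane zone genes *COL7A1*, *COL15A1* and *COL18A1* into the basement membrane class gave it 50.9% and left 25.6% for the other genes.

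**Figure D1:**
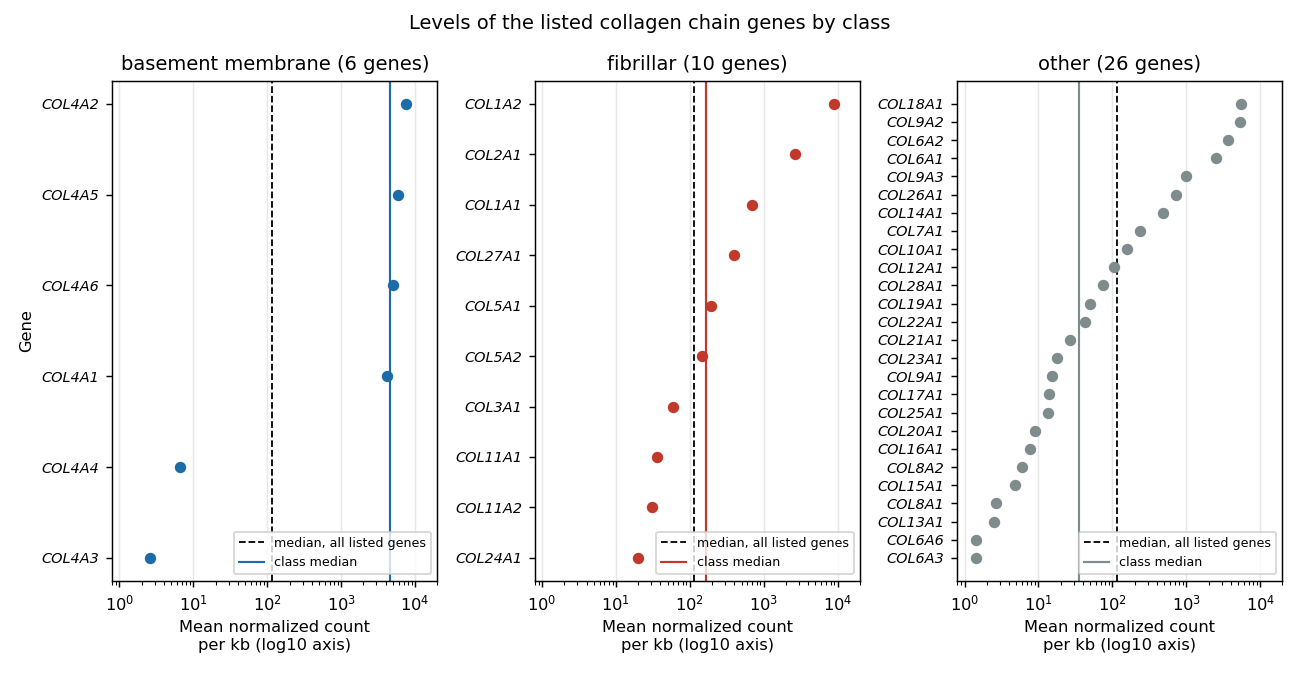
Each point is one listed collagen gene, placed by its mean normalized count per kb of canonical transcript on a log10 axis, in panels for the 6 basement membrane, 10 fibrillar and 26 other genes. The solid line is the class median and the dashed line the median of all listed genes, 115 per kb. In the basement membrane panel, 4 genes lie at 4214 per kb or more and 2 below 10, while no gap in the other panels is as wide. Error bars are absent because the mean pools all samples.

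**Figure D2:**
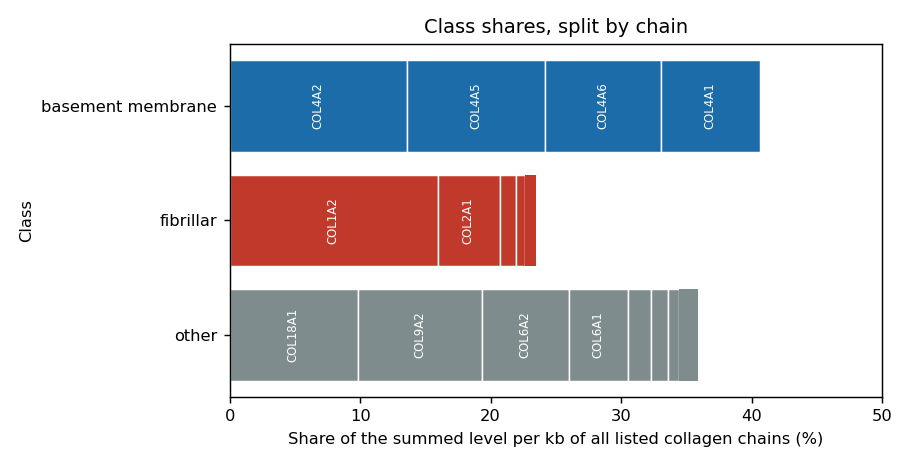
Bars give the share of each class in the summed level per kb of the 42 genes, in percent, split by chain from the highest to the lowest. The basement membrane bar (40.6%) is filled by 4 chains of like size, the fibrillar bar (23.5%) mostly by *COL1A2*, and the other bar (35.9%) mostly by 4 chains.

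*COL4A1* and *COL4A2* encode the chains of the type IV collagen found in nearly all basement membranes. *COL4A1* (chromosome 13, 110148963 to 110307157 of GRCh38, minus strand) had a mean normalized count of 27557, or 4214 per kb. *COL4A2* (chromosome 13, 110305812 to 110513209, plus strand) had 48787, or 7569 per kb, the second highest level of the family by canonical length. *COL4A2* was thus 1.80 times as high as *COL4A1*, or 1.35 times with the exon union as length. *COL4A5* and *COL4A6* encode chains of a type IV network with a narrower distribution, and their levels were as high as those of the common chains. *COL4A5* (X chromosome, 108439838 to 108697545, plus strand) had 38577 mean normalized counts, or 5907 per kb. *COL4A6* (X chromosome, 108155607 to 108439497, minus strand) had 33081, or 4949 per kb. *COL4A5* was 1.19 times as high as *COL4A6* by canonical length and 0.912 times by exon union, so which of them was higher is not settled. By canonical length, the sum of *COL4A1* and *COL4A2* was 1.09 times that of *COL4A5* and *COL4A6*, and the 4 genes spanned a range of 1.80-fold. By exon union the order of the pairs turned. *COL4A1* (1880 per kb) and *COL4A2* (2532) were then both below *COL4A5* (3250) and *COL4A6* (3564), so which pair was higher is not settled either.

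*COL4A3* and *COL4A4*, whose chains join that of *COL4A5* in the basement membrane of the kidney glomerulus, stood apart from these. *COL4A3* had a mean normalized count of 21.0, or 2.61 per kb, and *COL4A4* one of 65.5, or 6.56 per kb. The lowest of the high type IV genes, *COL4A1*, was 643 times as high as *COL4A4*. Of the annotated exons of *COL4A3*, 6.82% overlap those of *MFF-DT* on the opposite strand, which had a mean normalized count of 103 itself. Whether the authors' counting used the strand is not given in the sources used here, and the part of shared reads in so low a count was not tested.

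The 6 type IV genes lie in 3 head-to-head pairs, each pair reading outward from a common start region, and the members of a pair had levels of the same order. One window per pair is shown, taken at the start of the gene named. Only the *COL4A1* window also holds the start of the partner gene. Each sequence is the RefSeq window from 250 bases before to 50 bases after the start of the named gene on GRCh38.p14, 5′ to 3′ on that gene's strand. Capitals mark GC boxes (GGGCGG or its reverse complement CCGCCC) and CCAAT boxes (CCAAT or ATTGG), and TATAAA was searched on both strands and not found in these windows.

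COL4A1 (chr13:110307108-110307407, minus strand): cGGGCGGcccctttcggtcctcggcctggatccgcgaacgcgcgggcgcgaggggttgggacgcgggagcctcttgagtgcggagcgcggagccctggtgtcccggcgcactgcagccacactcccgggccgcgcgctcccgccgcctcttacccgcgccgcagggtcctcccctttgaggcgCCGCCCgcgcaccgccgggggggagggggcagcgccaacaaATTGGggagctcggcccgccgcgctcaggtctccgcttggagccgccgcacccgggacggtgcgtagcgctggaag
COL4A3 (chr2:227164374-227164673, plus strand): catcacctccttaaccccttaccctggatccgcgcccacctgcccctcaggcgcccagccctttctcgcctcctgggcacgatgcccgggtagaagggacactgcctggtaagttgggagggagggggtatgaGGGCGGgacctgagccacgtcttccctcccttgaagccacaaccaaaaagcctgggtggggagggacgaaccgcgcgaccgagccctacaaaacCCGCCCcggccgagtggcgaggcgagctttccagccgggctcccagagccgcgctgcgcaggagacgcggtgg
COL4A5 (chrX:108439588-108439887, plus strand): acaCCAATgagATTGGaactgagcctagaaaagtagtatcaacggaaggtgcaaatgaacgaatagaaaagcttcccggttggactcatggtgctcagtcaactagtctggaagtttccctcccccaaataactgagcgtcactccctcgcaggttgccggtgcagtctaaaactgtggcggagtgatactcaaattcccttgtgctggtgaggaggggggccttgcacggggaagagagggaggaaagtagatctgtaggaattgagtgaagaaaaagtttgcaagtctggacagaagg

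The *COL4A1* window also holds the start of *COL4A2*, 127 bases away, and both genes were high. It has 76.7% G and C, 45 CpG steps, 2 GC boxes and 1 CCAAT box. The start of *COL4A4* lies 419 bases from that of *COL4A3*, and both genes were near the bottom of the table. The *COL4A3* window has 67.7% G and C, 24 CpG steps and 2 GC boxes. The nearest RefSeq start of *COL4A6* lies 380 bases from that of *COL4A5*, while the canonical start of *COL4A6* is 1416 bases away, and both genes were high. The *COL4A5* window has 49.3% G and C, 8 CpG steps, 2 CCAAT boxes and no GC box. By G and C content, the window of *COL4A3*, a low gene, lay between those of *COL4A1* and *COL4A5*, which were high. These are windows of single genes, and a link between G and C content and level was not tested.

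Among the fibrillar genes, *COL1A2* was the highest, and by canonical length it was above *COL4A2* as well. *COL1A2* (chromosome 7, 94394895 to 94431227, plus strand) encodes the α2 chain of type I collagen, the main collagen of skin and bone. It had a mean normalized count of 45109.6, or 8894 per kb, rank 327 of the 21861 listed genes with a length. It made up 67.9% of the fibrillar class, and the other 9 fibrillar genes together made up 7.54% of the collagen sum. *COL1A1* (chromosome 17, 50184101 to 50201632, minus strand) encodes the α1 chain, of which a type I trimer usually holds more copies than of α2. Its mean normalized count was 4091, or 692 per kb. *COL1A2* was therefore 12.9 times as high as *COL1A1* per kb, and 9.19 times as high by exon union.

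*COL2A1* (chromosome 12, 47972967 to 48004554, minus strand) encodes the chain of type II collagen, the fibrillar collagen of cartilage. It was the next fibrillar gene with a mean normalized count of 13331, or 2635 per kb, 3.81 times the level of *COL1A1*. *COL27A1*, a fibrillar gene known from cartilage, had 394 per kb. The genes of type V collagen, which starts and thins type I fibrils, had 191 per kb for *COL5A1* and 144 per kb for *COL5A2*, a ratio of 1.33. *COL3A1*, whose chain accompanies type I in soft tissue, had 58.3 per kb, so that *COL1A1* was 11.9 times as high. The genes of type XI collagen, a partner of type II in cartilage fibrils, were close to each other with 35.4 per kb for *COL11A1* and 30.7 per kb for *COL11A2*. *COL24A1* was the lowest fibrillar gene with 19.7 per kb. Apart from *COL1A2* and *COL2A1*, no fibrillar gene reached the 90th percentile of the protein-coding genes, and 6 of the 10 were below their median.

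In the class of other collagens, 4 genes made up 85.1% of the class sum. *COL18A1* (chromosome 21, 45405165 to 45513720, plus strand) encodes a multiplexin of basement membranes, from which endostatin is cut. It had a mean normalized count of 29648, or 5482 per kb, 1130 times the 4.85 per kb of *COL15A1*, the other multiplexin. Of its annotated exons, 18.5% overlap those of *SLC19A1* on the opposite strand, a gene with a mean normalized count of 1072, and reads shared between them were not tested. *COL9A2* (chromosome 1, 40300489 to 40317813, minus strand) encodes a chain of type IX collagen, a FACIT on the surface of cartilage fibrils. It had 15152 mean normalized counts, or 5313 per kb. Its partner *COL9A3* (chromosome 20, 62816244 to 62841159, plus strand) had 2441 mean normalized counts, or 978 per kb, and *COL9A1*, the gene of the remaining chain, 15.3 per kb. *COL9A2* was thus 5.43 times as high as *COL9A3* and 346 times as high as *COL9A1*, or 655 times by exon union in the last case.

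*COL6A1* and *COL6A2* encode chains of type VI collagen, which forms beaded filaments near cell surfaces. *COL6A1* (chromosome 21, 45981770 to 46005050, plus strand) had 10669 mean normalized counts, or 2538 per kb. *COL6A2* (chromosome 21, 46098112 to 46132848, plus strand) had 12704, or 3688 per kb, 1.45 times as high. *COL6A3*, which encodes the large remaining chain of the classical type VI trimer, had a mean normalized count of only 15.0. At 1.43 per kb it was the lowest of the 42 members by canonical length, while *COL13A1* was lowest by exon union and by mean normalized count. *COL6A1* was 1779 times as high as *COL6A3*, or 2759 times by exon union and 710 times without division by length, and the size of this fold rests on the 15.0 counts of *COL6A3*. *COL6A6*, which encodes an alternative to that chain, had 1.44 per kb.

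**Figure D3:**
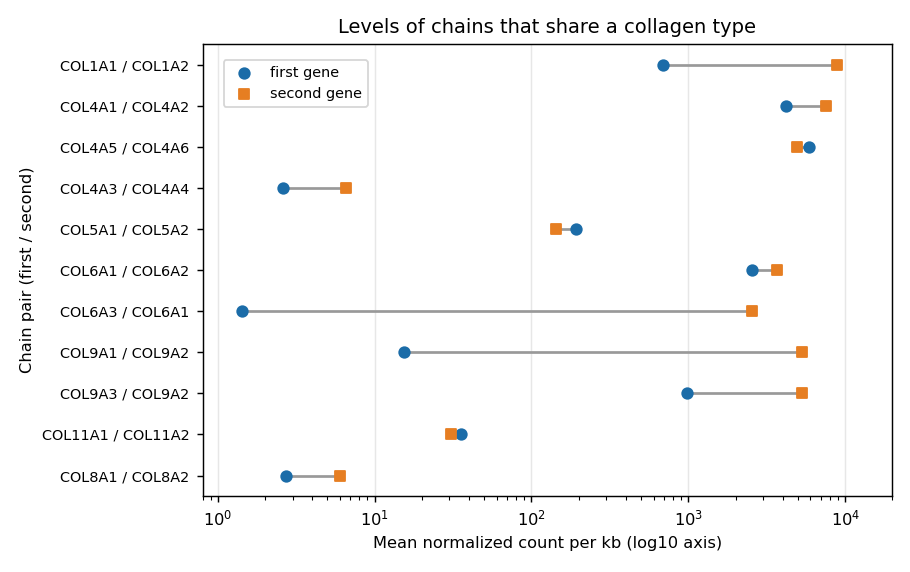
Each row gives the levels of a pair of genes that encode chains of one collagen type, in mean normalized counts per kb on a log10 axis, with a circle for the first gene and a square for the second. The type IV pairs, *COL5A1* with *COL5A2*, *COL6A1* with *COL6A2*, *COL8A1* with *COL8A2* and *COL11A1* with *COL11A2* lie within 3-fold of each other, while *COL1A1* with *COL1A2*, *COL6A3* with *COL6A1*, and the type IX genes lie further apart.

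The remaining 8 FACIT genes were lower. *COL14A1*, which binds type I fibrils, had 490 per kb, 4.65 times the 105 of *COL12A1*, a gene of the same kind. *COL19A1*, *COL22A1* and *COL21A1* had 50.5, 43.0 and 27.1 per kb. *COL20A1* and *COL16A1* had 8.96 and 7.69 per kb, and *COL9A1* was given above. *COL26A1* (chromosome 7, 101362875 to 101559024, plus strand) had 2163 mean normalized counts, or 726 per kb, and *COL28A1* 75.3. *COL7A1*, the gene of the anchoring fibrils that tie the skin's basement membrane to the dermis, had 233 per kb. Of the short-chain network genes, *COL10A1*, known from hypertrophic cartilage, had 156 per kb, while *COL8A2* and *COL8A1*, of the corneal and vascular type VIII, had 6.06 and 2.70 per kb. The 4 transmembrane collagen genes were all low, at 18.0 per kb for *COL23A1*, 13.8 for *COL17A1*, the hemidesmosomal collagen, 13.4 for *COL25A1* and 2.48 for *COL13A1*. Genes this low rest on few reads, with a mean normalized count of 7.80 for *COL13A1*, 12.5 for *COL6A6* and 14.9 for *COL8A1*, so that their order is uncertain.

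The genes that act on collagen chains were compared with the members on the same scale of mean normalized counts per kb. All 17 genes for chain modification and folding were listed, with a median of 2389 per kb, above the medians of the fibrillar and other classes. *P4HB*, a subunit of prolyl 4-hydroxylase, had 23429 per kb, *SERPINH1*, the collagen chaperone HSP47, 12483, and *PPIB*, a prolyl isomerase, 11139. At the low end, *P4HA3* had 3.50 and *COLGALT2* 19.0 per kb, while their relatives *P4HA1* and *COLGALT1* had 5412 and 1432. The 13 genes for processing and cross-linking had a median of 143 per kb. The highest of them was *PXDN* with 9094 per kb, which encodes peroxidasin, the enzyme that cross-links type IV collagen. *BMP1*, which removes the C-terminal propeptides of fibrillar chains, had 1059 per kb. *ADAMTS2*, which removes their N-terminal propeptides, had 1.19, and *LOX*, the lysyl oxidase that cross-links fibrils, had 148. Its relative *LOXL1* had 447.

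Of 10 receptor genes, 8 were listed, and *GP6* and *LAIR1* were not. *ITGB1*, the β1 integrin shared by all collagen-binding integrins and many others, had 11660 per kb. Its collagen-binding partners were lower, with 238 per kb for *ITGA1*, 92.9 for *ITGA2*, 16.9 for *ITGA10* and 12.6 for *ITGA11*. *DDR1*, the epithelial collagen receptor kinase, had 1601 per kb and *DDR2* 11.5. *MRC2*, an endocytic collagen receptor, had 575. The 12 basement membrane partners had a median of 2842 per kb. *LAMA1*, *LAMB1* and *HSPG2*, which encode the laminin α1 and β1 chains and perlecan, were the highest with 18398, 12542 and 9987 per kb. *LAMA4*, the gene of the α chain in LN411 itself, had 2.91 per kb in these cells.

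Markers of cell types were read on the same scale. All 5 epithelial markers were at 10686 per kb or more, with *KRT8* (93462), *EPCAM* (44988) and *KRT18* (38784) highest. A total of 8 of 9 pancreatic progenitor markers reached a mean normalized count of 1000, among them *SOX9* with 5259, *PDX1* with 4969 and *FOXA2* with 2146 per kb. The exception, *PTF1A*, had 8.10 per kb. Of the 10 mesenchymal and fibroblast markers, 9 were listed, with a median of 87.9 per kb and a summed level of 3626 per kb. *VIM* had 3037 of these, *ACTA2* 221, *PDGFRA* 136, *TCF21* 88.8 and *LUM* 87.9. *POSTN* had 23.1, *PDGFRB* 20.0, *TWIST1* 8.78 and *THY1* 2.56, and *DCN* was not listed. The 4 chondrocyte markers had levels of 43.1 (*ACAN*), 42.3 (*MATN3*), 18.5 (*SOX5*) and 4.50 per kb (*COMP*). The 5 endothelial markers lay between 1.26 (*CDH5*) and 11.0 per kb (*PECAM1*), with *KDR* at 8.22, *VWF* at 1.97 and *TEK* at 1.56. The 3 endocrine markers had a median of 289 per kb, with *CHGA* at 2172, *NEUROG3* at 289 and *INSM1* at 199. Neither pluripotency marker, *POU5F1* or *NANOG*, was listed. *COL1A2* alone was above the summed level of the mesenchymal markers. *COL2A1* and *COL9A2* were each above the sum of the 4 chondrocyte markers, which was 108 per kb. That sum leaves out *SOX9* (5259 per kb), which was counted with the progenitor markers only, so it depends on the list chosen. Levels of these genes in mesenchymal cells or chondrocytes were not used for comparison. The part of other cell types in the collagen levels was not tested, and in pooled bulk RNA, few cells with much RNA of a gene and many cells with little cannot be told apart.

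**Figure D4:**
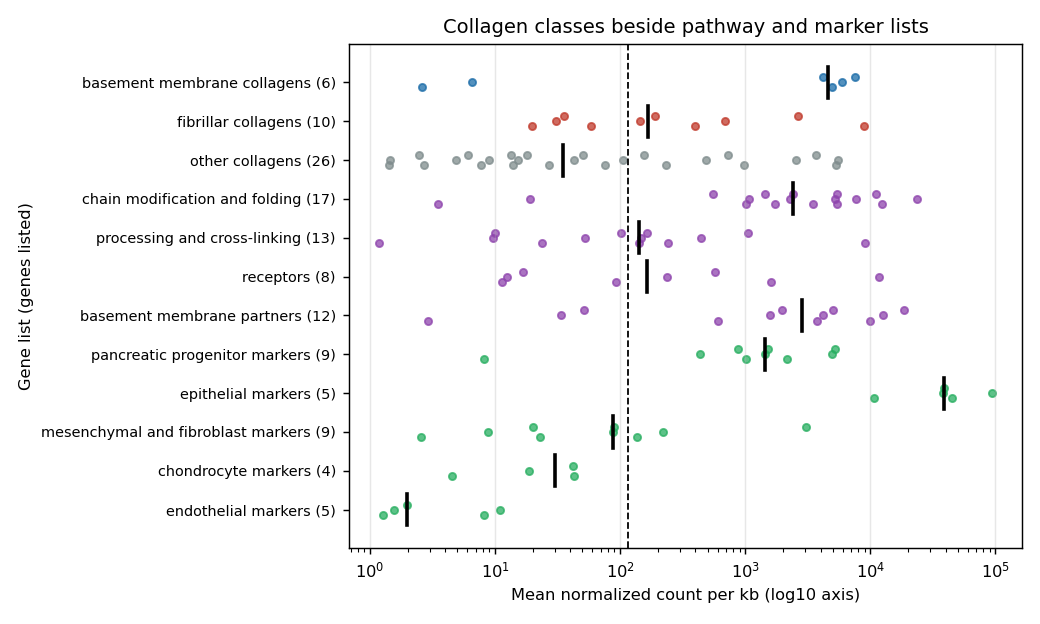
Points are genes listed in the 3 collagen classes, 4 pathway lists and 5 marker lists, by mean normalized count per kb on a log10 axis. Black bars are list medians and the dashed line is the median of all listed genes, 115 per kb. The chain modification and folding list (2389) and the basement membrane partners (2842) have medians above the dashed line and below that of the type IV genes (4581). The mesenchymal (87.9) and chondrocyte (30.4) marker medians lie below the dashed line.

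The classes also differ in gene structure, which the levels did not use. Of the coding exons of the fibrillar genes' canonical transcripts, 47.1% hold exactly 54 coding bases, against 4.05% for the type IV genes, 15.2% for the other collagens and 0.448% for the other listed protein-coding genes. A whole number of glycine-led triplets has a coding length that is a multiple of 9. Such a length was found for 83.8% of fibrillar, 46.6% of type IV and 53.6% of other collagen exons, against 13.6% of exons in the background genes. Only lengths were read, so an exon of such a length need not hold these triplets. *COL1A1* and *COL1A2* have 21 and 24 exons of 54 coding bases, and their levels differed 12.9-fold. A link between exon structure and level was not tested.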

How the data were processed

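Poly(A) RNA of 18 samples was sequenced on an Illumina NextSeq instrument. Per the submitters' processing notes and the study's methods, alignment to hg38 and gene-level counting were done in STAR 2.7.2d with a GENCODE annotation, and normalization in DESeq2 1.34.0. The deposited table gives, for each gene and time, the authors' mean normalized count, which is a signal (counts divided by size factors and averaged over samples) without a length correction. Its 5 further columns hold the authors' comparisons of LN411 with FN (log2 fold change, standard error, Wald statistic, p-value and adjusted p-value) and were not used. The samples averaged are not named in the file. Depth per sample is unknown, and no precision can be given for single levels.

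Each mean was divided by the length of the canonical transcript in kb from GENCODE version 44 on GRCh38, matched by Ensembl identifier for 21861 of 21944 genes. The study's counts used an earlier GENCODE version, and the effect of this difference on the lengths was not tested. All 42 members matched. A percentile or median over all genes uses the genes with a length. Promoter windows came from RefSeq (GRCh38.p14), with an entry for 31 of the 42 members. Classes and lists came from textbook knowledge, and members and lists were chosen with earlier results of these data known. The rule for named genes was all members, with the 12 highest in full, the 3 highest and the lowest genes of each list, and genes that overlap a member. *P4HA1*, *COLGALT1*, *COLGALT2*, *LOX*, *TCF21*, *LUM*, *POSTN*, *PDGFRB*, *ITGA1*, *ITGA2*, *ITGA10*, *ITGA11* and *DDR2* were named after their values were seen. Alternatives were other lengths, another class definition, filters on low values and leaving out the highest chains. The formulas for levels, shares, medians and ratios returned the known values on simulated data. That does not check the lengths, the classes or the matching of genes. The calculations were run in Python 3.11.15 (with pandas 2.3.3, numpy 2.4.6 and, for plots, matplotlib 3.10.9). One marker list is not reported here.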

Additional observations from a re-analysis of the deposited data

How the results depend on the processing

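No paired analysis was possible because the values are means over all samples and come from no test, and no replicate could be left out for the same reason. With no spread between replicates, a value was taken as moved when it changed by more than 1.5 times. Of 69 alternative values for 18 results, 59 moved by less than that, 9 moved more and 1 ratio changed its direction. These counts do not measure robustness. Some values could not move, such as the fibrillar share when only the basement membrane class was redefined. The fall from 41 members at a minimum count of 10 to 29 at 100 stayed within the bound. The class medians without division by length counted as moved although their unit differs. Among the 59, the shares by exon union (35.0% for type IV, 42.4% for other genes) put the classes in the opposite order to the 40.6% and 35.9% by canonical length. With the exon union as length, the type IV median was 2206 per kb, the ratio of *COL6A3* to *COL6A1* 0.000362, that of *COL9A1* to *COL9A2* 0.00153 and that of *COL8A1* to *COL8A2* 0.262, and the ratio of *COL4A5* to *COL4A6* turned from 1.19 to 0.912. Without division by length, the class medians, then in mean normalized counts, were 30319 for type IV, 1300.1 for fibrillar and 194 for other genes, and *COL6A3* to *COL6A1* was 0.00141. Without the highest chain of each class, the fibrillar share fell to 12.4%. The cause of these shifts beyond the change of length was not tested. *COL8A1*, *COL6A6*, *COL6A3* and *COL13A1* have mean normalized counts near or under 15 and are the least precise.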

Other observations

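Promoter windows of 300 bases were matched for 31 of the 42 listed collagen genes, in 43 windows, since some genes have several starts. Their median G and C content was 63.3%, against 58.7% over all 35116 promoter windows. It was 67.7% for the 7 type IV windows (6 genes), 63.0% for the 10 fibrillar windows (5 genes) and 63.3% for the 26 other windows (20 genes). A GC box was present in 23 of the 43 windows (53.5%) against 45.0% of all windows, a CCAAT box in 13 (30.2%) against 34.6%, and the letters TATAAA or TTTATA in 8 (18.6%) against 11.5%. These are letter matches only.

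Outside the type IV pairs, 4 further neighbouring pairs of collagen genes lie within 200000 bases of each other. *COL6A1* and *COL6A2*, 93061 bases apart in the same direction, were both high with 2538 and 3688 mean normalized counts per kb. *COL3A1* and *COL5A2*, tail to tail and 19151 bases apart, had 58.3 and 144 per kb, and *COL19A1* and *COL9A1*, tail to tail and 3571 bases apart, had 50.5 and 15.3 per kb. *COL6A6* had 1.44 per kb beside *COL6A5*, which was not listed.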
